A study of Mus musculus with 14 samples.

Results

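The cytosolic heat shock chaperones described here are 10 mouse genes, chosen by name: the Hsp70 and Hsp110 genes Hspa1a, Hspa1b, Hspa8, Hspa4, Hspa4l and Hsph1, the J-domain gene Dnajb1, the Hsp90 genes Hsp90aa1 and Hsp90ab1, and the small heat shock gene Hspb1. Probes were matched to them through the RefSeq identifier that the array files give for each probe. That matched 14 of 55681 probes, for 9 of the 10 genes, and no probe was matched to Hspa1b. All 14 probes passed the filter on dim probes, so 9 of the 11481 named genes tested belong to the set.

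These proteins keep other proteins folded. An Hsp70 binds exposed stretches of an unfolded protein with the help of a J-domain partner such as Dnajb1, an Hsp110 such as Hspa4, Hspa4l or Hsph1 lets it release its nucleotide and its client, Hsp90 finishes the folding of kinases and steroid hormone receptors, and small heat shock proteins such as Hspb1 hold unfolded proteins in solution. Hspa8 and Hsp90ab1 are made in most cells without stress, whereas Hspa1a, Hspa1b, Hsph1, Dnajb1, Hsp90aa1 and Hspb1 are the classical targets of the heat shock factor Hsf1, and Hsf1 and Hsp90 both meet the glucocorticoid receptor, which ties this system to stress hormones.

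RNA was measured on 14 one-colour Agilent arrays. The SS mice had met an adverse, hostile social setting in the third postnatal week and the SI mice had been kept in isolation at that age. Every mouse of both groups then went through place conditioning with cocaine at 5 mg/kg, a dose below threshold, followed by extinction and withdrawal, and blood was drawn 24 hours after that. No mouse without early stress and none without cocaine was analysed, and the strain and the age at sampling are not given in the sources used here. Blood was taken below the jaw into EDTA and red cells were lysed; the labels call the remaining cells PBMC, but no gradient or sort is named, and 12 of 15 neutrophil markers and 18 of 18 platelet markers passed the filter.

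The arrays were 4 SI and 4 SS mice labelled male on 1 slide, and 2 SI and 4 SS mice labelled female on the other. Sex label, slide and scan therefore cannot be told apart, and SI arrays sat in columns 1 and 2 of a slide and SS arrays in columns 3 and 4, so stress group and array column cannot be told apart either. The Y-linked genes Ddx3y and Eif2s3y were well above background in 0 of 8 mice labelled male and in every mouse labelled female. This goes against the sex labels, and the groups are called labelled males and labelled females below for that reason. The Y-linked Kdm5d and Uty were well above background in no mouse of either label. A probe of the X-linked Xist was so in 3 of 4 SI and 2 of 4 SS labelled males, and another in 1 SI labelled male. Neither was so in a labelled female. The arrays of SS labelled females 20 and 21 differed by a spread of 0.0976 (log2) over 1210 repeated spots, no more than the repeats of a spot within either array (0.103 and 0.0958), while the other 18 pairs of arrays within a group differed by 0.273 to 0.949. They were averaged and counted as 1 sample, which left 13 samples: 4 SI and 4 SS labelled males, 2 SI and 3 SS labelled females. SI labelled male 4 stood apart, with correlations to the others of its group between 0.837 and 0.903, against 0.935 to 0.991 for the 15 remaining pairs. Between 34.8% and 47.7% of the spots of an array were well above background. Each array carries its own mouse number. For SS labelled males 1 and 01b the labels do not say whether 01b is another mouse or a further sample of mouse 1. Their arrays differed by a spread of 0.347 and were counted as separate mice.

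Levels are given as scaled log2 signal: the log2 processed signal minus the 75th percentile, on the same array, of 14504 probes that all 14 arrays measured well above background. A value of 0 is therefore a bright probe, and a step of 1 is a factor of 2. Levels of different genes come from different probes and are not compared. In a blood sample a lower level in each cell and fewer cells that make the transcript cannot be told apart.

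The stretches before the start sites of 4 of the genes are shown because the signals of Hspa4l, Hsph1, Hspa1a and Hspb1 had the largest differences between SS and SI. Each is the 250 bases before the start, 5′ to 3′ on the strand of the gene, from RefSeq on GRCm38.p6. Capitals mark pairs of the units bound by heat shock factors, head to head or tail to tail, searched as GAANNTTC and TTCNNGAA; each reads the same on both strands.
Hspa4l (chr3:40745363-40745612, plus strand): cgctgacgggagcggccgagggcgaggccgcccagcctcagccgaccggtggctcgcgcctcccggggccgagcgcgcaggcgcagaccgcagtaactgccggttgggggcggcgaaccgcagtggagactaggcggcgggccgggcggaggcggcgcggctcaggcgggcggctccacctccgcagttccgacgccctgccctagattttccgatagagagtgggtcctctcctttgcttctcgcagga
Hsph1 (chr5:149636337-149636586, minus strand): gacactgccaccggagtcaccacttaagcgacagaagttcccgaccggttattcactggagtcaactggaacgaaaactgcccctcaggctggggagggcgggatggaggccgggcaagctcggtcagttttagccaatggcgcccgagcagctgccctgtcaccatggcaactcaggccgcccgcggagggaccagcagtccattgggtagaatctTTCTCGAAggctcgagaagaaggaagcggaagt
Hspa1a (chr17:34972157-34972406, minus strand): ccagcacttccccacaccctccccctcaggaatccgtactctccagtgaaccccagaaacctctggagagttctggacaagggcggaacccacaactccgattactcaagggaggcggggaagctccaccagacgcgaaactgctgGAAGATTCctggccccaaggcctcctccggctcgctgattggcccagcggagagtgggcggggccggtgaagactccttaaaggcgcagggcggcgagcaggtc
Hspb1 (chr5:135887669-135887918, plus strand): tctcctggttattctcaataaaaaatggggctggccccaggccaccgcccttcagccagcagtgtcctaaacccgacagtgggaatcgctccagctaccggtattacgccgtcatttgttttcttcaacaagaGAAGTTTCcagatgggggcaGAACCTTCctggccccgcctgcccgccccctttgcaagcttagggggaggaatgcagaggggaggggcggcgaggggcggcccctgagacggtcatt

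Windows were found for 7 of the 10 genes; Hspa8, Hsp90aa1 and Hsp90ab1 had no entry. A pair of units was present in 4 of the 7, Hspa1a, Hspa1b, Hsph1 and Hspb1, and in 12.8% of all 32851 windows of this length. Hspb1 held 2 pairs, between 117 and 90 bases before its start, and the pair of Hspa1a and of Hspa1b began 104 bases before theirs. The windows of Hspa1a and Hspa1b were identical at 247 of 250 positions; the transcripts of these neighbouring genes are also near-identical, the sequence of the array probe was not analysed, and the signal given for Hspa1a may hold both. Hspa4l, Hspa4 and Dnajb1 had no match to these letters in the window. A match is a string of letters and does not show that a factor binds.

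With all mice in 1 fit and slide as a term, 1 of the 9 genes passed the test, Hspa4l, which was 2.02-fold higher in SS than in SI mice. Hsph1, Hspa1a, Hspb1 and Hsp90aa1 had differences above 0 that did not pass, and Hspa8, Hspa4, Dnajb1 and Hsp90ab1 had differences below 0 that did not pass either. The test was limma with Benjamini-Hochberg adjustment over all 24013 probes at 0.05. It called 8.39% of all named genes, 7.87% higher in SS, so 1 of 9 is a share near the background. At an unadjusted p under 0.05 there were 5 of the 9 genes and 2454 of the 11481. The median difference over all named genes was -0.15, and over the 9 genes 0.39, so the 4 differences below 0, of -0.07 to -0.29, lay within 0.15 of the median of all genes.

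**Figure D1:**
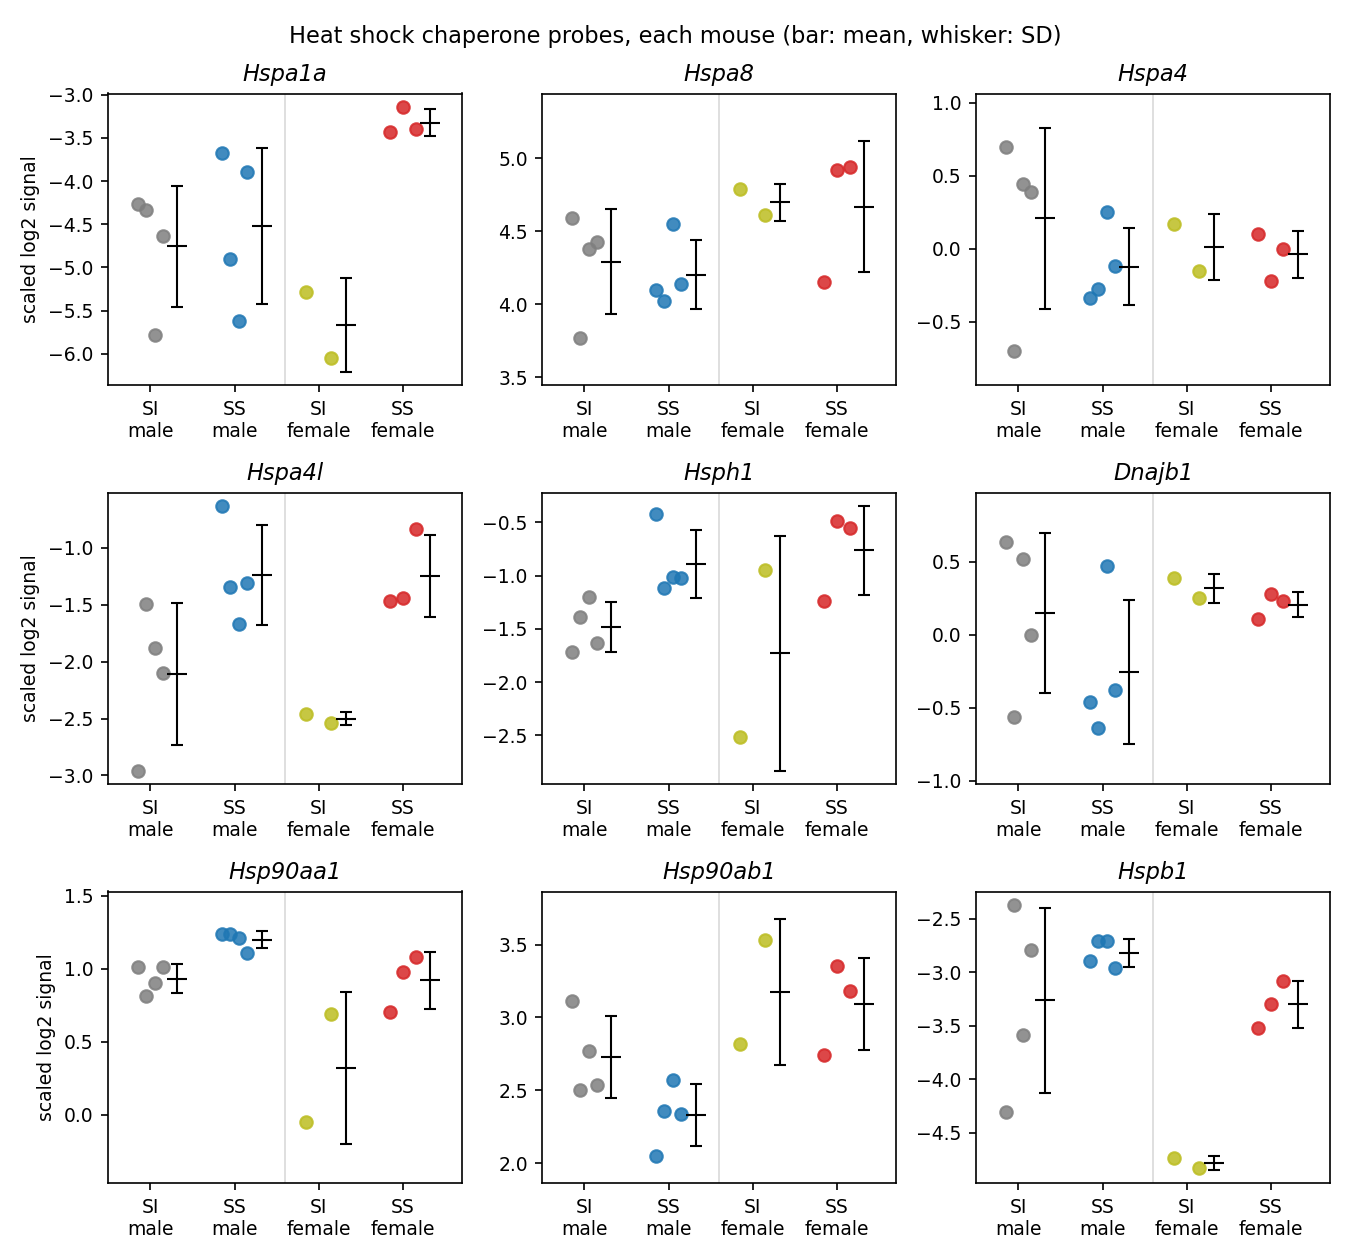
Scaled log2 signal (vertical axis, log2) of the probe that stands for each of the 9 measured chaperone genes, 1 point per mouse, with the mean and SD beside each group (n = 4, 4, 2 and 3). Hsp90aa1 has every SS mouse above every SI mouse on both slides. Hspa4l overlaps in labelled males, and Hspa8 and Dnajb1 overlap on both slides.

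Hspa4l encodes a member of the Hsp110 branch that exchanges the nucleotide of Hsp70. In SI labelled males its signal was -2.96, -2.10, -1.88 and -1.49, and in SS labelled males -1.67, -1.34, -1.31 and -0.63. SI labelled females had -2.54 and -2.46, and SS labelled females -1.47, -1.44 and -0.83. SI labelled male 4 was the only SI mouse that reached into the SS values, above SS labelled male 3, and the groups of labelled females did not overlap. The difference was 1.01 ± 0.25 (SE, 7 SS and 6 SI samples; adjusted p = 0.0284). Reassigning SS and SI within the slides, 700 arrangements in all, gave a two-sided exact permutation p of 0.00286. The call ended without any 1 of 6 mice: the adjusted p was 0.0558 without SI labelled male 6, 0.0511 without SI labelled male 5, 0.0728 without SS labelled male 1, 0.0738 without SI labelled female 27, 0.0758 without SI labelled female 28 and 0.0638 without SS labelled female 23, with differences no smaller than 0.86. It also ended with the 75th percentile of all probes as the scale (0.0647), with no filter on dim probes (0.107) and with array row as a block (0.0511). On the deposited log2 table the difference was 2.14. That table rises steeply over part of the range of signal that Hspa4l spans, as given below for Hsph1.

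The platelet and megakaryocyte markers moved with Hspa4l. Of 18 such markers tested, 17 rose in SS mice, with differences between 0.77 and 1.69 over the 18 and a median of 1.56. The mean centred level of the 18 was between -1.75 and 0.29 in SI and between 0.36 and 1.21 in SS labelled males, and between -1.42 and -1.08 in SI and 0.36 and 0.76 in SS labelled females. SI labelled male 6, the lowest mouse for Hspa4l, was also the lowest for these markers (-1.75), and SS labelled male 1 was the highest for both (1.21). SI labelled male 4, the SI mouse with the highest Hspa4l, was the only SI mouse above 0 in the markers (0.29). Their part in the difference of Hspa4l was not tested.

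**Figure D2:**
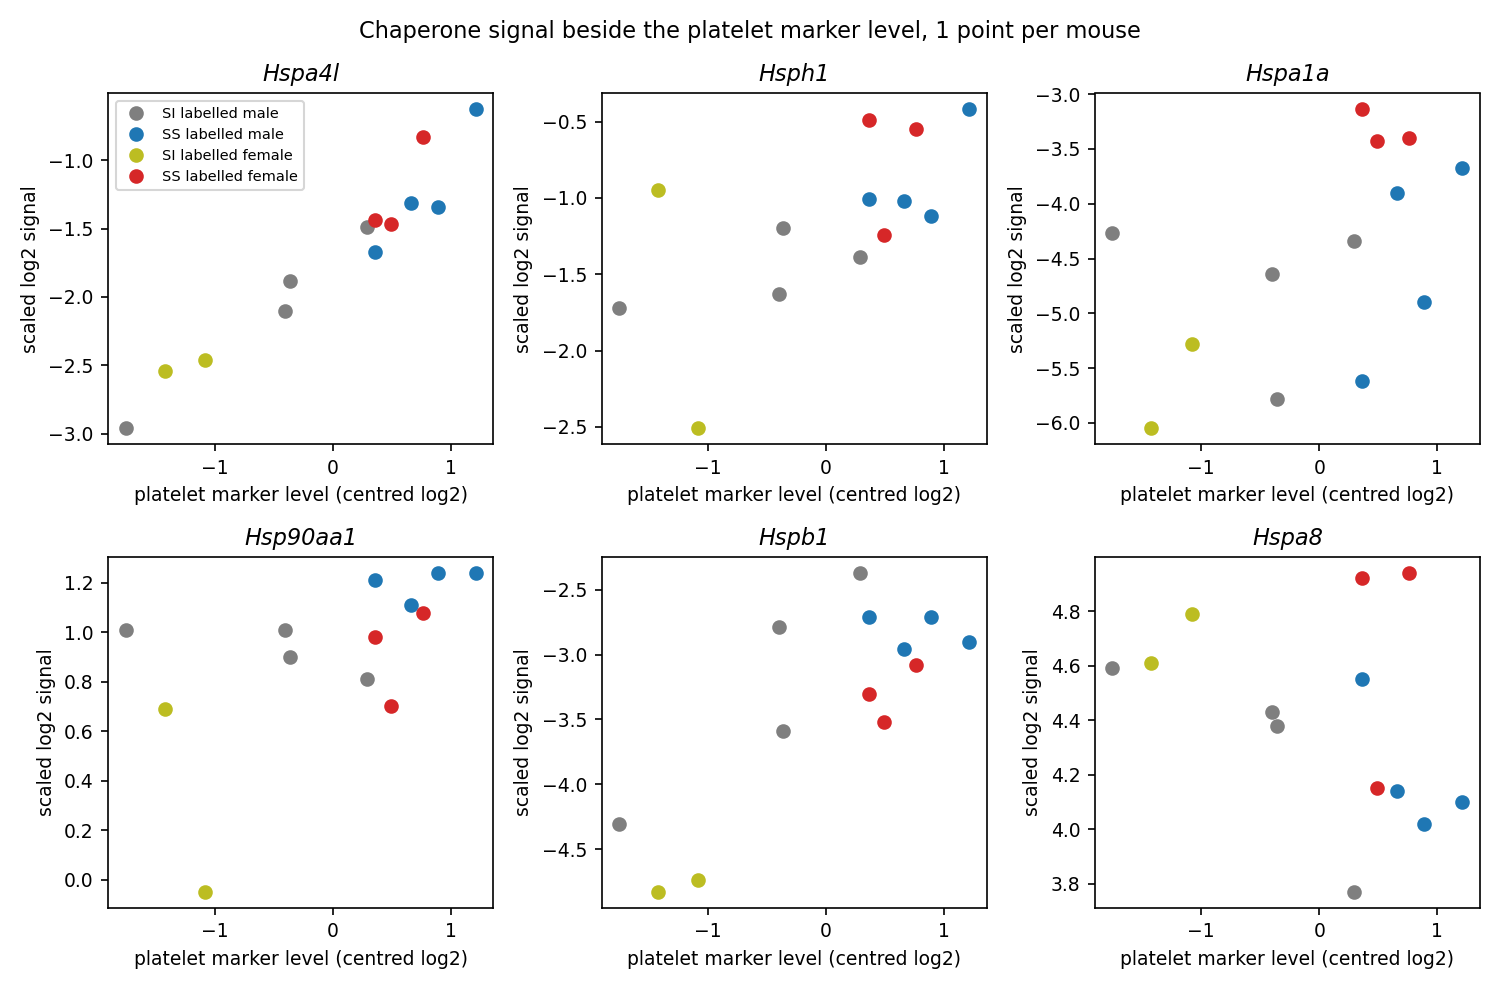
Scaled log2 signal (vertical axes) of 6 chaperone genes against the mean centred log2 level of 18 platelet markers (horizontal axes), 1 point per sample (n = 13) coloured by group. Hspa4l climbs from -2.96 to -0.63 as the markers go from -1.75 to 1.21. Hspa8 does not climb with them, and in SI labelled males it falls as they rise.

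By the rule of the highest Pearson correlation over the 13 samples after the 4 group means were taken out, the genes whose signal was most like that of Hspa4l were Nck2 (r = 0.980), Trappc9 (0.979), Fgfr1op2 (0.978), Nlrx1 (0.977) and H2ac22 (0.977). These samples share slides and scaling. Nck2 encodes an adaptor of tyrosine kinase signalling, Trappc9 a subunit of a vesicle tethering complex and Nlrx1 a mitochondrial NOD-like protein. The SS minus SI differences were 1.41 ± 0.29 for Nck2 (adjusted p = 0.0112), 0.90 ± 0.23 for Trappc9 (0.0336), 0.88 ± 0.21 for Fgfr1op2 (0.0213) and 1.25 ± 0.29 for Nlrx1 (0.0185). The histone gene H2ac22 did not pass, at 0.59 ± 0.18 (0.0739). The call of Fgfr1op2 ended when either SI labelled female (27 or 28), SS labelled male 1 or SS labelled female 23 was left out (0.0524 to 0.0599), that of Nlrx1 without any of the first 3 of these mice (0.0507 to 0.0541), and that of Trappc9 without any 1 mouse other than SI labelled male 4, SS labelled male 3 and SS labelled female 22 (0.0521 to 0.083). Further alternatives also ended them, among them no filter (0.107, 0.0644 and 0.138 for Fgfr1op2, Nlrx1 and Trappc9).

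Hsph1 encodes Hsp110 itself, the heat-inducible exchange factor of Hsp70. Its signal was -1.72, -1.63, -1.39 and -1.20 in SI and -1.12, -1.02, -1.01 and -0.42 in SS labelled males. SI labelled females had -2.51 and -0.95, and SS labelled females -1.24, -0.55 and -0.49. Labelled males did not overlap, with SS labelled male 1 well above the others, whereas SI labelled female 28 lay above SS labelled female 22. The difference over all mice was 0.73 ± 0.26 (adjusted p = 0.125; two-sided exact permutation p = 0.0114). A second probe of the gene gave 0.76 ± 0.29 (adjusted p = 0.165). Without SI labelled female 27 the difference was 0.48, which is over 1.5 times smaller. With array weights Hsph1 passed at 0.79 (adjusted p = 0.0114), in a fit that called 5655 of all 11481 named genes.

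On the deposited log2 table Hsph1 passed, with a difference of 2.40 (adjusted p = 0.0211), against 0.73 on the scanner signals. That table rises steeply over a narrow range of signal. Probes with a scaled log2 signal from -2 to -1.5 had a median deposited value of 9.42 and those from -1 to -0.5 a median of 12.69, but those from -0.5 to 0 only 13.08. Few deposited values lay inside the step: 1.14% between 11 and 12, against 5.68% between 9 and 10 and 7.63% between 13 and 14. Hsph1 lies on this step, with deposited values from 9.56 to 11.30 in SI and from 12.58 to 13.12 in SS labelled males.

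**Figure D3:**
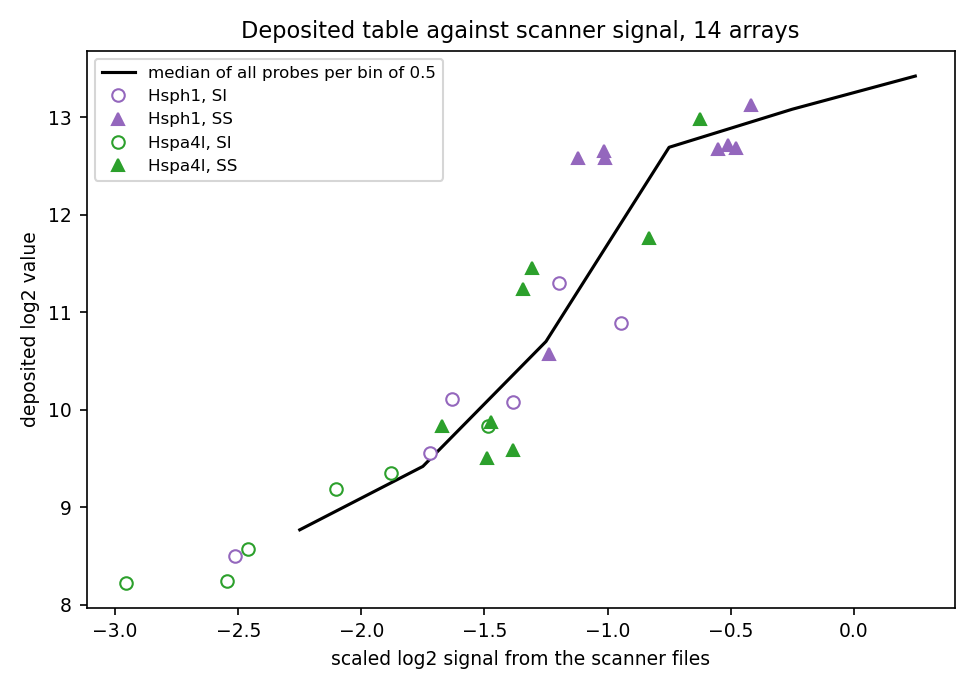
Deposited log2 value (vertical axis) against scaled log2 signal from the scanner files (horizontal axis); the line joins the medians of all probes in bins of 0.5 and the points are Hsph1 and Hspa4l on the 14 arrays, open for SI and filled for SS. The line climbs from 9.42 to 12.69 within 2 steps of 0.5, where most Hsph1 points lie.

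Hspa4, the third exchange factor, was measured by 3 probes that did not run together. The brightest gave -0.22 ± 0.23 (adjusted p = 0.615), a second -0.17 ± 0.17 and the last 0.25 ± 0.30. The brightest ranged from -0.70 to 0.70 in SI and from -0.34 to 0.25 in SS labelled males, and from -0.22 to 0.17 over all labelled females. SS and SI mice overlapped on both slides for this probe. The other probes were much dimmer, with group means between -4.51 and -3.76. The second had SI labelled females at -4.05 and -4.02 and SS labelled females between -3.84 and -3.82, without overlap. In labelled males the 3 probes gave -0.33, -0.40 and 0.66, so no direction can be given for the gene. Without SI labelled male 4, its lowest mouse, the difference of the brightest probe in labelled males was -0.63 (adjusted p = 0.0357), and with array weights it was -0.51 over all mice (0.0184).

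Hspa1a encodes the inducible Hsp70 that cells make after heat. The signal was low throughout: -5.78, -4.64, -4.34 and -4.27 in SI and -5.62, -4.90, -3.90 and -3.67 in SS labelled males, which overlapped. SI labelled females had -6.05 and -5.28, and SS labelled females -3.43, -3.40 and -3.14, the highest of all groups and above every labelled male. The probe was well above background on 1 of the 2 SI labelled female arrays and on every array of the other groups. Over all mice the difference was 1.03 ± 0.44 (adjusted p = 0.23; two-sided exact permutation p = 0.07). Normexp background correction with quantile scaling brought it to 0.38, over 1.5 times smaller.

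Hspa8, the constitutive Hsp70, showed no difference that could be told from 0. It ranged from 3.77 to 4.59 in SI and from 4.02 to 4.55 in SS labelled males, and from 4.61 to 4.79 in SI and 4.15 to 4.94 in SS labelled females, overlapping on both slides. The difference was -0.07 ± 0.19 (adjusted p = 0.87). The 2 dimmer probes of the gene gave 0.05 ± 0.19 and 0.15 ± 0.16. With an SE of 0.19, small differences in either direction were not detectable.

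Dnajb1, the J-domain protein that feeds clients to Hsp70 and shuts down Hsf1, ranged from -0.56 to 0.64 in SI and from -0.64 to 0.47 in SS labelled males. Labelled females lay closer together, between 0.25 and 0.39 in SI and between 0.11 and 0.28 in SS. Both slides overlapped, and the difference was -0.29 ± 0.24 (adjusted p = 0.525). Dnajb1 and the Hsp70 and Hsp110 genes of the same heat shock programme thus had differences on both sides of 0.

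Hsp90aa1, the stress-inducible Hsp90, was the 1 gene of the 9 with every SS mouse above every SI mouse on both slides, a pattern that 6.42% of all named genes showed. SI labelled males had 0.81, 0.90, 1.01 and 1.01, and SS labelled males 1.11, 1.21, 1.24 and 1.24. SI labelled females had -0.05 and 0.69, and SS labelled females 0.70, 0.98 and 1.08. The gap between the nearest SI and SS labelled females was thus 0.70 against 0.69. The difference was 0.39 ± 0.16 and did not pass (adjusted p = 0.201); the two-sided exact permutation p was 0.00143, the smallest that 700 arrangements can give. Without SI labelled female 27, the lowest mouse by far, the difference was 0.25, over 1.5 times smaller.

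Hsp90ab1, the constitutive Hsp90, ran the other way in labelled males. Its signal was 2.50, 2.54, 2.77 and 3.11 in SI and 2.05, 2.34, 2.36 and 2.57 in SS labelled males, with SS labelled male 3 reaching into the SI values. SI labelled females had 2.82 and 3.53, and SS labelled females 2.74, 3.18 and 3.35, which overlapped. The difference was -0.28 ± 0.19 over all mice (adjusted p = 0.449).

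Hspb1, known as Hsp25 in mice, is the small heat shock protein of the set and is known to guard actin filaments. SI labelled males had -4.31, -3.59, -2.79 and -2.37, a spread that held all SS labelled males at -2.96, -2.90, -2.71 and -2.71. SI labelled females had -4.83 and -4.74, below every other mouse, and SS labelled females -3.52, -3.30 and -3.08. The groups of labelled females were more than 1 log2 unit apart. Over all mice the difference was 0.84 ± 0.30 (adjusted p = 0.139; two-sided exact permutation p = 0.03). Without SI labelled male 4, its highest mouse, Hspb1 passed at 1.05 (adjusted p = 0.0169). That fit called 1907 of all 11481 named genes. Normexp correction brought the difference of Hspb1 to 0.33 and array weights to 0.37.

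Within each slide taken alone, no chaperone gene passed between SS and SI. In labelled males limma called 0 of the 9 genes, and 0% of all named genes; at an unadjusted p under 0.05 there were 1 of the 9 and 2362 of the 11481. Hspa4l was 0.87 ± 0.33 higher in SS (adjusted p = 0.159), Hsph1 0.59 ± 0.33, Hspb1 0.45 ± 0.35, Hsp90aa1 0.27 ± 0.20 and Hspa1a 0.24 ± 0.45. The value of Hspb1 was 0.096 without SI labelled male 6 and 0.74 without SI labelled male 4. Dnajb1 had -0.40 ± 0.30 and Hsp90ab1 -0.40 ± 0.24. The smallest two-sided exact permutation p for 4 against 4 is 0.0286, and Hsph1 and Hsp90aa1, whose groups did not overlap, reached it. The share of all named genes without overlap in labelled males was not counted, so this does not set these genes apart. Without SI labelled male 4, Hspa4l passed at 1.08 (adjusted p = 0.0289), beside Hspa4. Array weights called Hspa4l (0.00991), Hspa4 (0.0104) and Dnajb1 (0.00922) there. Both of these fits also called many other named genes, against 0% in the fit reported.

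In labelled females limma also called 0 of the 9, and 0.366% of all named genes; 5 of the 9 and 1854 of the 11481 had an unadjusted p under 0.05. Hspa1a had a difference of 2.34 ± 0.58 (adjusted p = 0.0677), measured against SI arrays of which 1 of 2 was well above background for this probe. Hspb1 was 1.49 ± 0.45 higher (adjusted p = 0.113), Hspa4l 1.26 ± 0.42 (0.153), Hsph1 0.97 ± 0.42 (0.306) and Hsp90aa1 0.60 ± 0.26 (0.302). With 2 SI and 3 SS samples no exact permutation test can go below 0.1. Hspa1a passed without SI labelled male 6 (adjusted p = 0.0488) and without SI labelled male 4 (0.0418), as did Hspb1 (0.0299 and 0.0391). All groups share 1 estimate of the spread, so leaving out a labelled male can change an SE here. The SE of Hspb1 fell from 0.45 to 0.331 and 0.357 in these 2 fits. That of Hspa1a stayed at 0.58 in both. Hspa1a also passed with arrays 20 and 21 as 2 mice (0.0298), a choice tried after the data were seen. It passed with the 75th percentile of all probes (0.0416) and with array weights (0.0344, and 0.0414 for Hspb1). Under normexp correction it passed too (0.039), but its difference fell to 0.88. Each of these fits called more of all named genes than the 42 of the fit reported. So did the fits without SI labelled male 6 or 4. The differences of Hsph1 and Hsp90aa1 rested on which SI labelled female was kept: they were 0.19 and 0.23 without mouse 27, and 1.75 and 0.97 without mouse 28.

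Markers of other blood cells differed beside these labelled female values. Of 12 neutrophil markers 4 fell in SS. The mean centred level of the 12 was between 1.45 and 2.38 in SI and between -1.05 and -0.60 in SS. In labelled males that level lay the other way, between -1.05 and -0.26 in SI and between -0.06 and 0.24 in SS. There 0 of the 12 passed. In labelled females none of 6 NK cell markers and none of 8 erythroid markers passed. Their mean centred levels were 1.36 to 1.61 in SI against -0.20 to 0.55 in SS for NK cells, and 0.41 to 1.26 against -1.06 to -0.17 for erythroid cells. These did not overlap, but with 2 SI and 3 SS samples no exact permutation test can go below 0.1. How many of all named genes separate so on this slide was not counted. The platelet markers lay higher in SS, as given above, and passed in 0 of 18 here. The part of these markers in the chaperone differences was not tested.

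**Figure D4:**
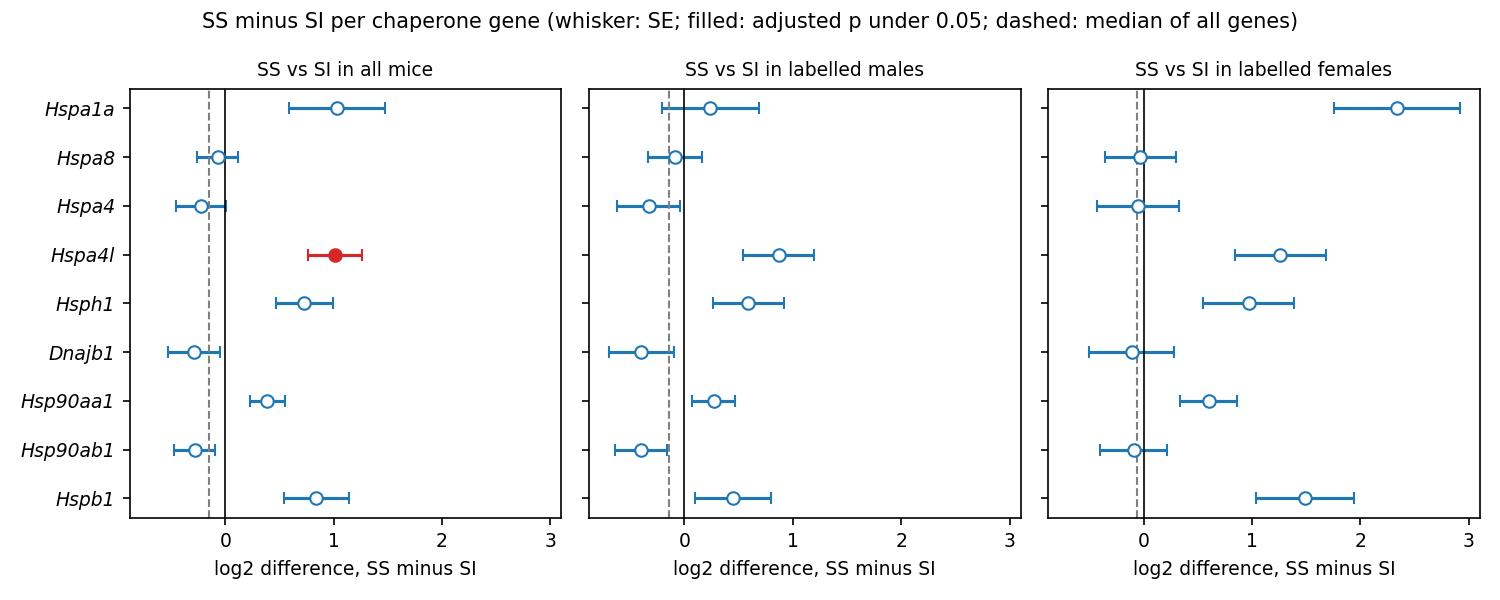
Difference in log2 signal, SS minus SI (horizontal axis), with its SE for the 9 chaperone genes over all mice (7 SS and 6 SI samples), in labelled males and in labelled females; the dashed line is the median of all named genes. Hspa4l at 1.01 over all mice is the only filled point (adjusted p under 0.05), and Hspa1a is at 2.34 in labelled females against 0.24 in labelled males.

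The difference of SS minus SI between labelled females and labelled males was tested directly. Limma called 0 of the 9 genes, and 0.0348% of all named genes; 1 of the 9 and 976 of the 11481 had an unadjusted p under 0.05. That 1 was Hspa1a, with a difference of differences of 2.11 ± 0.73 (unadjusted p = 0.0135, adjusted p = 0.375). For Hspb1 it was 1.04 ± 0.57 (adjusted p = 0.491) and for Hspa4l 0.39 ± 0.53 (0.74). The SS response is therefore not shown to differ between the slides for any of the 9.

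Between the slides, labelled females against labelled males, 2 of the 9 genes passed, beside 23.5% of all named genes. Hspb1 was lower in labelled females, with a difference of -1.0 ± 0.28 (adjusted p = 0.0164), and Hsp90ab1 was higher, by 0.60 ± 0.20 (0.0333). Hsp90aa1 had -0.45 ± 0.16 (0.0559); it passed without SI labelled male 4 (0.0361) or SI labelled female 28 (0.0163), with array weights (0.028), on the deposited table (0.0285), with normexp correction (0.0348), with arrays 20 and 21 as 2 mice (0.0344) and with array row as a block (-0.73, 0.0323). It was at -0.26 (0.301) without SI labelled female 27 and at -0.06 with the 75th percentile of all probes. The call of Hspb1 ended without SI labelled female 28 (0.0594), with the 75th percentile of all probes (-0.62, 0.0775), quantile scaling (0.0603), normexp correction (-0.36, 0.0749) and array row as a block (0.115). That of Hsp90ab1 ended without that mouse (0.188), without SS labelled females 20 and 21 (0.0882) or 23 (0.073), without SI labelled male 5 (0.0647), and without SS labelled male 1 (0.0628), 2 (0.0553) or 01b (0.0562). It also ended with quantile scaling (0.0636), no filter (0.111), array row as a block (0.397) and on the deposited table, where the difference was 0.11 (0.642); with the 75th percentile of all probes it was 0.99.

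The rest of the chaperone system was followed through 98 tested genes of 10 lists, and 2 of them passed over all mice, both higher in SS. One was Hsbp1, whose protein binds heat shock factor trimers and damps them, at 0.91 ± 0.20 (adjusted p = 0.0149), from a mean of 0.56 ± 0.43 (SD, n = 4) in SI to 1.35 ± 0.36 in SS labelled males and from -0.21 ± 0.19 (n = 2) to 0.89 ± 0.12 (n = 3) in labelled females. The other was Dnajb4, a J-domain partner of Hsp70, at 1.35 ± 0.27 (adjusted p = 0.011), from -4.27 ± 0.63 to -3.13 ± 0.55 and from -4.88 ± 0.28 to -3.18 ± 0.22. Hsbp1 did not pass with the 75th percentile of all probes (0.0749) or with no filter (0.0775), and normexp correction brought Dnajb4 to 0.50. The platelet markers above were also higher in SS. They were not set beside these 2 genes mouse by mouse, and their part was not tested. The median difference of the 98 genes was -0.24, against -0.15 for all named genes, and 9 of the 98 had an unadjusted p under 0.05, against 2454 of the 11481. The 2 calls stand beside 963 of 11481 named genes, the 8.39% given above.

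**Figure D5:**
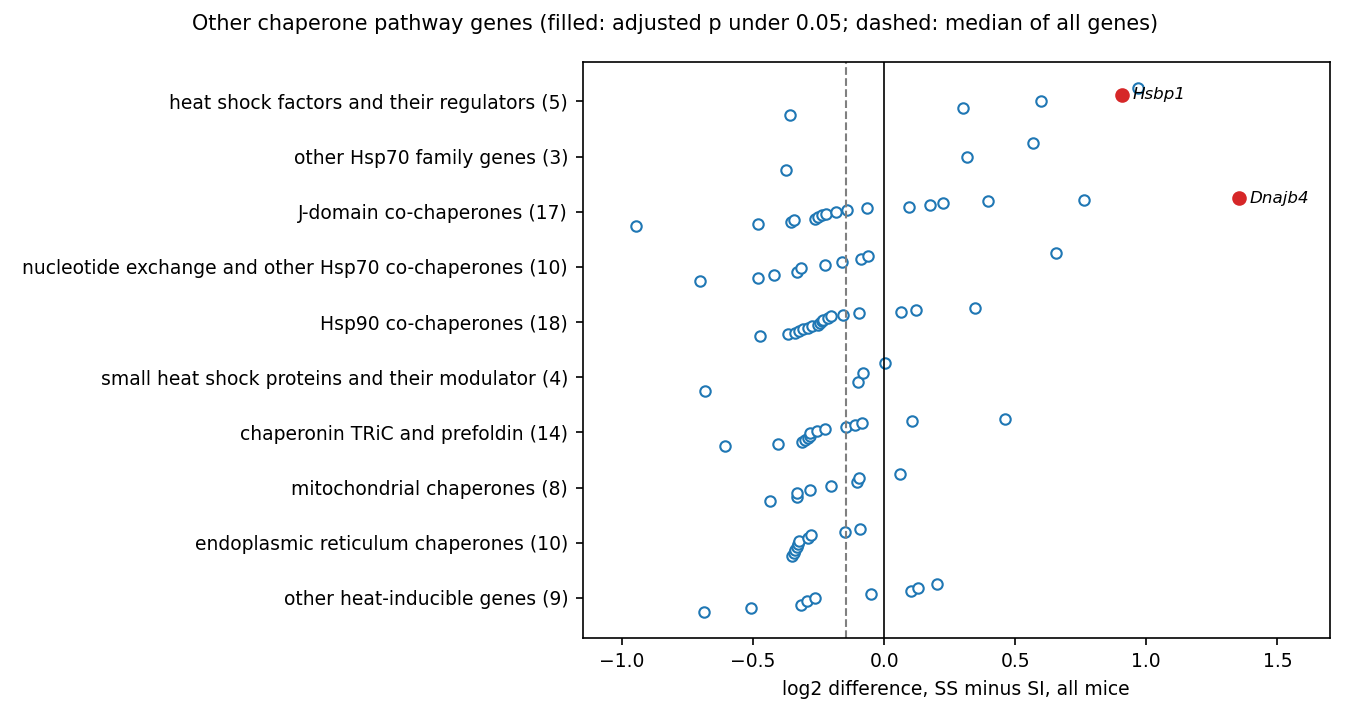
Difference in log2 signal, SS minus SI over all mice (horizontal axis), for each tested gene of 10 chaperone lists, with the number tested in brackets. The 2 filled points, Hsbp1 at 0.91 and Dnajb4 at 1.35, passed at an adjusted p under 0.05, and the dashed line is the median of all named genes.

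By role, 1 of 5 heat shock factors and regulators rose (Hsbp1) and 0 fell, and 1 of 17 J-domain co-chaperones rose (Dnajb4) and 0 fell. In the other 8 lists limma called no gene over all mice. None of the 3 other Hsp70 family genes passed, with Hspa13 at 0.32 ± 0.16 (adjusted p = 0.309). None of 10 nucleotide exchange factors and other Hsp70 co-chaperones passed, with Bag3, a partner of Hspb8 in selective autophagy, at 0.66 ± 0.22 (0.111). Among 18 Hsp90 co-chaperones the lowest p was that of Ahsa1, which speeds the ATPase of Hsp90, at 0.35 ± 0.15 (0.228).

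Of 4 small heat shock proteins and their modulator, Cryab was at -0.69 ± 0.43 (adjusted p = 0.426), a value that array weights turned to 0.29. Of 14 subunits of the chaperonin TRiC and prefoldin, which fold actin and tubulin, Pfdn2 was at -0.61 ± 0.19 (0.0774). Among 8 mitochondrial chaperones Grpel1 was at -0.28 ± 0.13 (0.277). Among 10 chaperones of the endoplasmic reticulum Calr was at -0.34 ± 0.17 (0.304), and the list ran from -0.35 to -0.09, all below 0. Differences below 0 were also common elsewhere, with 7174 of all 11481 named genes and 75 of the 98 pathway genes. Among 9 other heat-inducible genes Hmox1, the heme oxygenase, was at -0.69 ± 0.31 (0.257).

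Within the slides the tests called 0 of the 98 genes in labelled males and 0 in labelled females, where 0 and 42 of the 11481 named genes were called. At an unadjusted p under 0.05 there were 10 and 4 of the 98, against 2362 and 1854 of the 11481. The medians of the 98 were -0.32 and 0.01, against -0.15 and -0.06 for all named genes. Hspa4l, Hsbp1 and Dnajb4 were thus the 3 chaperone system genes that passed over all mice, of the 9 and the 98.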

How the data were processed

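The deposited scanner file of each array gives a processed signal, spot and background signals as fluorescence intensity, and flags, per the file headers. Feature Extraction 10.7.3.1 made them per the file headers, while the submitters' processing notes name version 9.1. The authors also deposited a table of log2 values for 27879 of the probes, with a normalization that no source used here states. Control spots and outlier spots were left out, and spots of a probe were averaged as log2 processed signal. The test covered 24013 probes that 6 or more of the 14 arrays measured well above background, with limma 3.58.1 in R 4.3.3 (lmFit and eBayes) and Benjamini-Hochberg adjustment over all of them at 0.05. Symbols came from RefSeq; 26425 of 31063 probes with such an identifier matched. The brightest tested probe stands for a gene, and its other probes are given beside it. All mice were fitted with slide as a term, and the slides, their difference and the contrast between slides in a fit with 4 groups. The planned fit used 14 arrays; averaging the 2 near-identical arrays departs from it, and the fit without averaging is an added alternative. Single genes were also tested by exact permutation within slides (Python 3.11.15). All members are described; of each pathway list the called genes, or the gene of lowest p, are named. The members, the gene lists and the marker lists were chosen with earlier results of these data known. The code was tested on simulated data. The labels do not say that samples came from separate cages or days, so p-values measure the spread between these mice. The number of arrays limits the precision.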

Additional observations from a re-analysis of the deposited data

Results flagged for a closer look

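Among the 18 combinations of a gene and a labelled male group examined, 1 mouse stood far from the others of its group: SS labelled male 1 had a scaled log2 signal of -0.42 for Hsph1, while the nearest of the other 3 mice was at -1.01. The gap was 0.845 of the range of the group. Such a gap arises by chance in about 1 in 20 groups. The same mouse had the highest Hspa4l signal, the highest platelet marker level and the highest Hspa1a signal of its group.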

How the results depend on the processing

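The count of chaperone genes called over all mice, 1 in the fit reported, was 0 with the 75th percentile of all probes, with no filter and with array row as a block, 2 on the deposited table, 3 with array weights, and between 0 and 2 when 1 mouse was left out. In labelled males it was 0, 3 with array weights, and between 0 and 2 without 1 mouse. In labelled females it was 0, 1 with the 75th percentile of all probes, 1 with normexp and quantile scaling, 2 with array weights, 1 with arrays 20 and 21 as 2 mice, and between 0 and 2 without 1 mouse. Between the slides it was 2, 0 with quantile scaling, 1 with no filter, 1 with array row as a block (Hsp90aa1, not one of the 2), 3 with array weights, 3 with arrays 20 and 21 as 2 mice, and between 1 and 3 without 1 mouse. For the difference between the sex labels it was 0 under every alternative run. Over all named genes, no filter called 435 and array weights 5655 over all mice, against 963. Signs turned in 7 cases, none of them of a called value: Hspa8 over all mice with the mean over its probes (0.044) or without SS labelled female 22 (0.018; between -0.17 and 0.018 without 1 mouse), Hspa1a in labelled males with quantile scaling (-0.064) and without SS labelled male 1 or SI labelled male 7 (between -0.10 and 0.60 without 1 mouse), Hspa4l in the difference between the sex labels on the deposited table (-0.24), and Cryab with array weights (0.29). The causes were not tested. Direction and call of single genes and lists held in 1032 other comparisons with an alternative chosen at the start and in 42 with arrays 20 and 21 as 2 mice. These counts and the 7 sign turns cover a chosen set of differences. They leave out Hspa8 in labelled males, and Hspa8, Hspa4, Dnajb1 and Hsp90ab1 in labelled females. For the difference between the sex labels they cover only Hspa1a, Hspb1 and Hspa4l, and between the slides only Hspb1, Hsp90aa1 and Hsp90ab1. How often the signs of the others turned is not counted here. The counts include genes that stayed uncalled. They also include fits without a mouse of the other slide, which cannot change the size of a difference within 1 slide. Hspa1a lay near background in SI labelled females, which limits its fold there. No paired analysis was possible because the groups share no mouse numbers.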
